A study of Arabidopsis thaliana with 3 samples.

Results

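The genes described here are 2 cytosolic small heat shock protein genes, AT2G29500 and AT1G53540, and SGT1A, which encodes a co-chaperone. They are 3 of the 3602 genes that had a probe set annotated to them alone on an Affymetrix array of Arabidopsis thaliana. The genes were chosen from their signals on these same arrays, where each was higher in the mutant ppi1, so their differences are a description and nothing about them was tested. Each has 1 probe set, with no suffix that marks possible cross-hybridisation, and none lies in a probe set annotated to several genes.

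Whole seedlings of the Col-0 background were measured at growth stage 1.02, grown on MS medium with 0.5% sucrose under a day of 16 h light and 8 h dark. The wild-type group carried no modification, ppi1 had the Toc33 gene disrupted by T-DNA, and for line 75-IV the labels place a T-DNA in Toc75, printed as At4g09070. At the outer envelope of plastids Toc33 acts as a receptor for proteins imported from the cytosol, which then pass through a channel built of Toc75. The gene annotation used here places TOC75-IV at another locus than the printed one. Which Toc75 gene is disrupted in line 75-IV, and whether it encodes that channel, is therefore not settled here. The title of the series names ppi1 and ppi3. A growth temperature was entered in the labels for ppi1 only, as normal, and the number of plants pooled was left blank. Whether all groups grew at one temperature is not given in the sources used here, and the part of temperature in the signals of heat shock genes was not tested. Each group had 1 array, so there is no spread between replicates and nothing could be tested, and what is called a difference below lies between arrays.

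Small heat shock proteins carry an alpha-crystallin domain and assemble into oligomers that bind unfolding proteins and keep them from aggregating until HSP70 and HSP100 chaperones refold them. In plants the cytosolic forms are typically scarce in vegetative tissue without stress and are switched on by heat shock transcription factors. SGT1 proteins work with HSP90 and RAR1 to keep immune receptors of the nucleotide-binding leucine-rich repeat kind stable, and also bind SCF ubiquitin ligases. Arabidopsis has a pair of SGT1 genes, SGT1A and SGT1B. Precursors of plastid proteins are themselves held by cytosolic HSP70 and HSP90 before import.

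Signals are on a linear scale as deposited. With 2% cut at each end, their trimmed mean was 100.2 on each array. The signals are set beside a floor of 14.9, the 40th percentile of all signals other than controls, below which values were taken to have no order. The arrays differed in quality measures. Scanner background and noise were 62.0 and 2.49 on the ppi1 array, 56.6 and 1.94 on that of line 75-IV and 50.5 and 1.65 on that of wild type, and 504 of 285156 cells were marked as outliers in ppi1 against 11 and 20. The 3' over 5' signal ratio of the GAPDH control, a measure of transcript integrity and labelling length, was 1.61 in ppi1, 2.42 in line 75-IV and 18.7 in wild type, and that of ubiquitin was 2.75, 3.51 and 4.16. Among markers of seedling tissue, all 5 of the green tissue genes were well above the floor on each array and lower in ppi1 than on the other arrays, except that with scaling to bacterial spike-in controls SBPASE was higher in ppi1 than on both and PRK than in line 75-IV. PSAN of photosystem I had 1628.9 in ppi1, 3755.6 in wild type and 3193.5 in line 75-IV, and the light-harvesting gene LHCB4.3 had 58.9, 124.2 and 174.1 in the same order. Both of the 2 named root markers were highest in line 75-IV, except that AT1G52070 was highest in ppi1 under the spike-in scaling. The root beta-glucosidase gene BGLU21 had 265.4 in ppi1, 482.9 in wild type and 845.1 in line 75-IV, and AT1G52070 had 47.2, 28.9 and 71.3. ICL, the 1 named gene of 4 listed as seed reserve markers, was below the floor throughout. In RNA of whole seedlings, fewer cells of a type and less RNA per cell cannot be told apart.

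SGT1A had the highest ratios of ppi1 to the other arrays among the described genes above the floor on every array. Its signal was 98.8 in ppi1, 18.4 in wild type and 19.7 in line 75-IV. The ppi1 array stood alone, at 6.63 times the floor, whereas the other arrays lay close together at 1.23 and 1.32 times the floor. SGT1A was therefore 5.37-fold higher in ppi1 than in wild type and 5.02-fold higher than in line 75-IV, the 4th and 3rd highest ratios of 1853 and 1885 genes above the floor on both arrays of each comparison. Line 75-IV exceeded wild type by 1.07-fold, a difference in signal of 1.3, and the sign of that difference turned under median centring, quantile normalization and spike-in scaling. By rank within an array, which no scaling by 1 factor can alter, SGT1A lay at the 76.7 percentile of all probe sets in ppi1, at 46.3 in wild type and at 45.6 in line 75-IV.

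AT1G53540 was above the floor on the ppi1 array only. Its signal was 49.3 in ppi1, 2.2 in wild type and 2.3 in line 75-IV. The values in wild type and line 75-IV are both far below the floor and have no order between them. The gene was thus at least 3.31-fold higher in ppi1 than on either of the other arrays, a bound set by the floor. Its rank within the array moved from the 14.2 percentile in wild type and 14.1 in line 75-IV to 63.3 in ppi1. Of 1501 genes at or below the floor in both wild type and line 75-IV, 11 reached at least 2 times the floor in ppi1, and AT1G53540 had the highest ppi1 signal among them.

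AT2G29500 had the smallest difference, and its signals were low on every array. The signal was 33.5 in ppi1, 15.0 in wild type and 18.5 in line 75-IV. The wild-type value lay just above the floor, at 1.01 times it, and the others at 2.25 and 1.24 times. AT2G29500 was 2.23-fold higher in ppi1 than in wild type, rank 50 of 1853 genes, and 1.81-fold higher than in line 75-IV, rank 86 of 1885. Line 75-IV was 1.23-fold above wild type, rank 434 of 1858. The ppi1 against wild-type ratio fell under 2-fold with median centring (1.88-fold) and quantile normalization (1.91-fold).

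**Figure D1:**
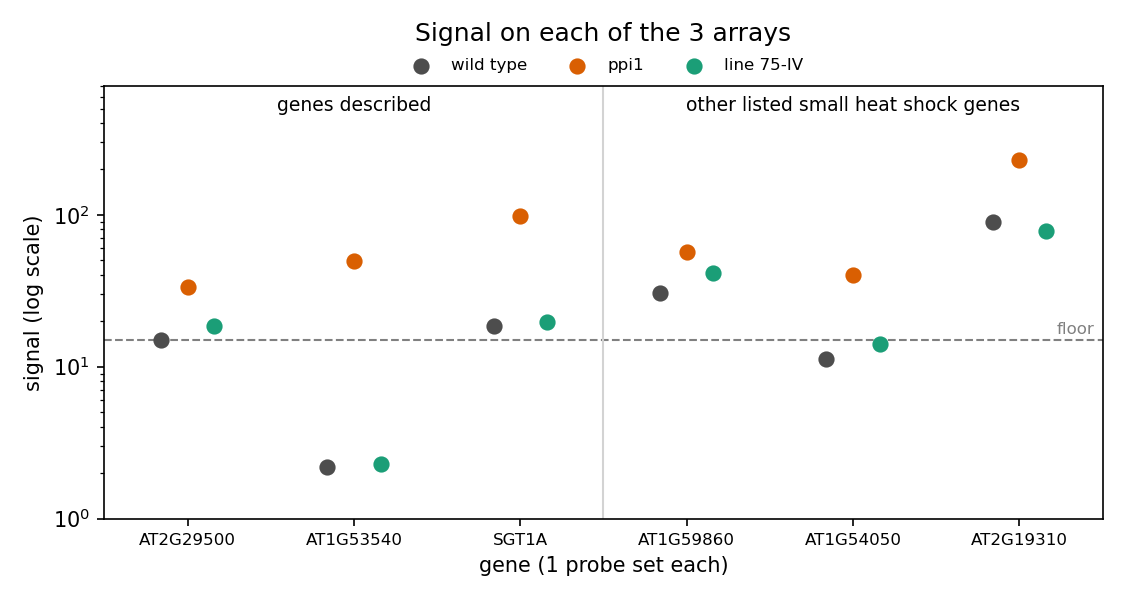
Signal (log axis, arbitrary linear units as deposited) of the 3 genes described and of 3 other listed cytosolic small heat shock genes, 1 point per array, with the floor of 14.9 as a dashed line. In all 6 genes the ppi1 point is the highest. SGT1A has nearly equal values in wild type and line 75-IV, whereas those of AT1G53540 are both below the floor.

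The ppi1 array was the highest for each of the 3 genes, and for SGT1A and AT2G29500 the other arrays lay nearer to each other than to it. For these genes line 75-IV and wild type were 1.3 and 3.5 signal units apart, and ppi1 exceeded the nearer of them by 79.1 and 15.0 units. For AT1G53540 both lay below the floor, so the distance between them was not measured. Without replicates it cannot be said whether line 75-IV and wild type differ beyond their spread. The comparisons of ppi1 with wild type and with line 75-IV share the ppi1 array, so they are not independent of each other.

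These values can be read against all genes. In ppi1 against wild type, 79 of 1853 genes (4.26%) had ppi1 signals higher by 2-fold or more and 45 (2.43%) had them lower by as much. Both SGT1A and AT2G29500 are among the 79. In ppi1 against line 75-IV, 52 of 1885 (2.76%) were at least 2-fold higher, SGT1A among them and AT2G29500 not, and 66 (3.50%) were lower by the same margin. In line 75-IV against wild type the shares for higher and lower were 1.45% and 0.431%, and none of the 3 genes is among them. Since the choice of the genes used these ratios, nothing is read from their count.

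Among genes above the floor on both arrays, those just above it outside ppi1 were 2-fold higher in ppi1 more often than all such genes. At no more than 2 times the floor, they cannot be 2-fold lower in ppi1 and stay above the floor. Of 433 genes between 1 and 2 times the floor in wild type and above it in ppi1, where SGT1A and AT2G29500 both lie, 36 were at least 2-fold higher in ppi1 (8.31%). The same range in line 75-IV held 407 genes, of which 19 were at least 2-fold higher in ppi1 (4.67%). Genes at or below the floor have a bound only and were counted by another rule. For those in wild type, where AT1G53540 was one, 34 of 1650 reached at least 2 times the floor in ppi1 (2.06%), and 4 of them, AT1G53540 included, had a ppi1 signal at least as high as its own. From at or below the floor in line 75-IV it was 25 of 1595 (1.57%).

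**Figure D2:**
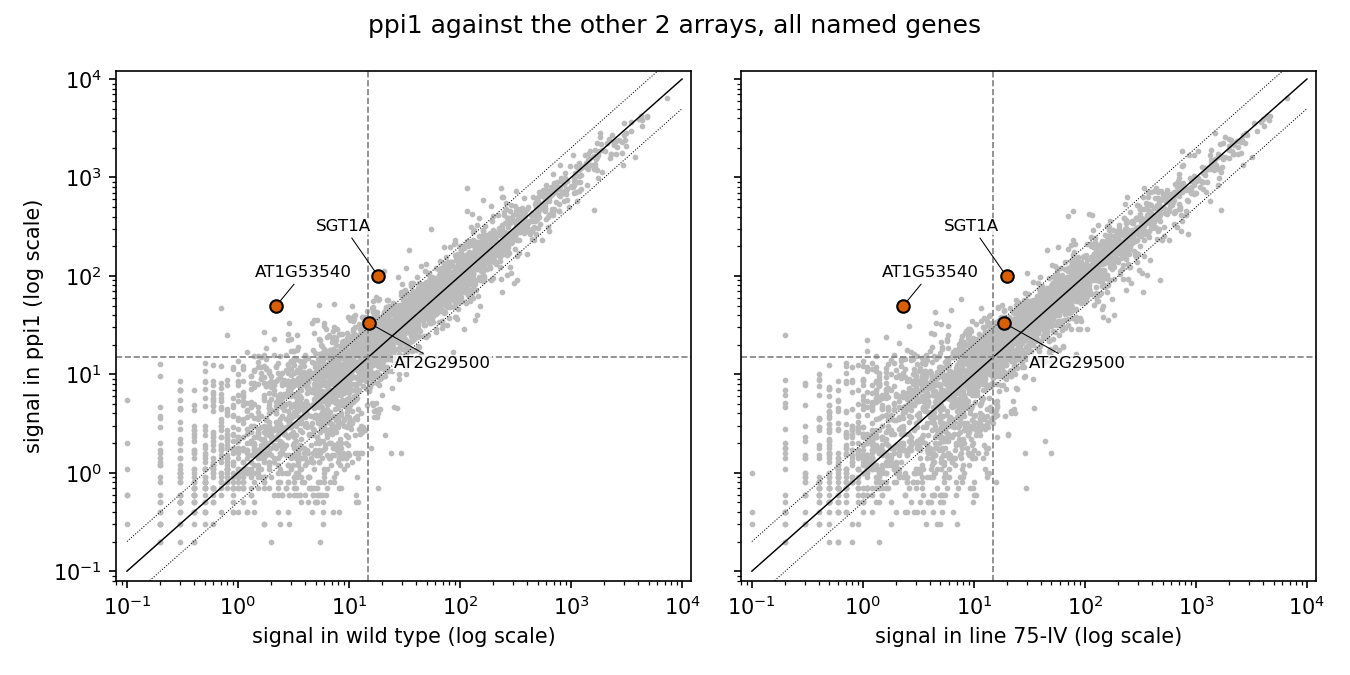
Signal in ppi1 against signal in wild type (left) and in line 75-IV (right) for 3602 genes, both axes logarithmic, with values of 0 drawn at 0.1. The solid line marks equal signals, the dotted lines 2-fold differences and the dashed lines the floor of 14.9. SGT1A and AT1G53540 lie well above the upper dotted line in both panels, and AT2G29500 lies near it. Genes below the floor scatter widely.

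The ppi1 array, on which all 3 genes were highest, also had the lowest 3' over 5' ratio of both GAPDH and ubiquitin and the highest background, noise and number of outlier cells. Both of these 3' over 5' ratios were highest on the wild-type array, with 18.7 for GAPDH, and that array enters each ratio of ppi1 against wild type. The part of these measures in the signals of the 3 genes was not tested.

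Other small heat shock genes were described from a list of 13 cytosolic members of the family, of which 5 had a named probe set. All 5 had their highest signal in ppi1, also under each of the 4 other scalings, and 4 of them were at least 2-fold higher there than in wild type, counting bounds. Of all genes that passed the floor on both arrays, 58.1% were higher in ppi1 than in wild type and 55.9% higher than in line 75-IV, beside the 4.26% and 2.76% that passed 2-fold upwards. AT2G29500 and AT1G53540 are 2 of these 5 and were chosen for being high in ppi1, so nothing is read from the count of 5, and 3 genes are left. AT2G19310 had 229.3 in ppi1, 90.1 in wild type and 78.0 in line 75-IV, each far above the floor. It was 2.54-fold higher in ppi1 than in wild type and 2.94-fold higher than in line 75-IV, and its line 75-IV signal was 1.16-fold below wild type.

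AT1G54050 resembled AT1G53540 in being above the floor in ppi1 only, with a signal of 40.0 in ppi1, 11.3 in wild type and 14.1 in line 75-IV. It was at least 2.68-fold higher in ppi1 than on either of the other arrays. AT1G59860 had 57.0 in ppi1, 30.6 in wild type and 41.5 in line 75-IV. Its ppi1 signal was 1.86-fold above wild type and 1.37-fold above line 75-IV, short of 2-fold in both but past it in both under the spike-in scaling. Of these 3 genes, 2 were thus at least 2-fold higher in ppi1 than on each of the other arrays, and the comparisons share the ppi1 array. AT1G54050 is among them through a bound only. Of 1501 genes not above the floor outside ppi1, 11 reached at least 2 times it in ppi1. For AT2G19310, above the floor throughout, the shares past 2-fold upwards were 4.26% against wild type and 2.76% against line 75-IV. The share past 2-fold in both was not counted. The list was drawn up with earlier results of these data known. The median log2 ratio of the 3 genes, with the bound of AT1G54050 included, was 1.35 against wild type and 1.42 against line 75-IV. Over all genes above the floor on both arrays of each comparison, which leaves out genes with a bound, the medians were 0.11 and 0.07. In line 75-IV against wild type no listed small heat shock gene reached 2-fold. Small heat shock genes of one class are close in sequence, so part of a signal may come from a related transcript, and this was not tested. ATHSP22.0, the single named gene of 6 listed for small heat shock proteins of organelles, was below the floor on all arrays, with 8.2 in ppi1, 3.0 in wild type and 1.6 in line 75-IV.

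Of 17 listed genes of the HSP70 family, the ATP-driven chaperones that take over clients from small heat shock proteins, 3 were named. None of these was 2-fold apart between ppi1 and wild type. Hsp70-2 had 27.7 in ppi1, 16.2 in wild type and 22.4 in line 75-IV, a ppi1 signal 1.71-fold above wild type and less than 2 times the floor throughout. Under the spike-in scaling that ratio was 2.39-fold. Another probe set of Hsp70-2, with a suffix for possible cross-hybridisation, was below the floor on every array. AT3G09440 was highest in line 75-IV, with 756.8 against 416.5 in wild type and 365.1 in ppi1. In this probe set ppi1 exceeded wild type only under the spike-in scaling. It was 1.82-fold higher in line 75-IV than in wild type, and ppi1 stood 2.07-fold below line 75-IV, or 1.31-fold under the spike-in scaling. A second probe set of the same gene, with a suffix for possible cross-hybridisation, had 518.0 in line 75-IV, 156.5 in wild type and 197.1 in ppi1, so the array of line 75-IV was highest in both. In the second, ppi1 was 1.26-fold above wild type, so the probe sets differed in the order of ppi1 and wild type. AT1G11660 was alike on the arrays, at 23.0, 20.7 and 23.0 in ppi1, wild type and line 75-IV, and the signs of its small differences turned with the scaling.

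Among 22 listed co-chaperones of HSP90 and HSP70, 4 were named, SGT1A and 3 others. Hop3, of the family that links HSP70 to HSP90, was above the floor in ppi1 only, with 25.3 against 0.8 in wild type and 0.2 in line 75-IV, at least 1.70-fold higher. AT4G02450, listed as an HSP90 co-chaperone of the p23 kind, was low in wild type and not high in ppi1 alone, with 133.2 in line 75-IV, 115.2 in ppi1 and 65.0 in wild type. It was 1.77-fold above wild type in ppi1 and 2.05-fold in line 75-IV. The latter was short of 2-fold under each of the 4 other scalings, and ppi1 exceeded line 75-IV under the spike-in scaling. SQN, a cyclophilin co-chaperone of HSP90, was below the floor on every array, with 10.8 in ppi1, 8.5 in wild type and 8.7 in line 75-IV. Since the ratio of Hop3 is a bound, it cannot be said whether it passed 2-fold as SGT1A did, and under the spike-in scaling the bound itself did. A search of gene symbols and synonyms for heat shock and chaperone terms brought up 1 further gene, the copper chaperone gene CCS. CCS had 50.9 in ppi1, 73.0 in wild type and 34.4 in line 75-IV, and was 2.12-fold lower in line 75-IV than in wild type. The search did not read gene descriptions, so unlisted chaperone genes without such a term in their names were missed.

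**Figure D3:**
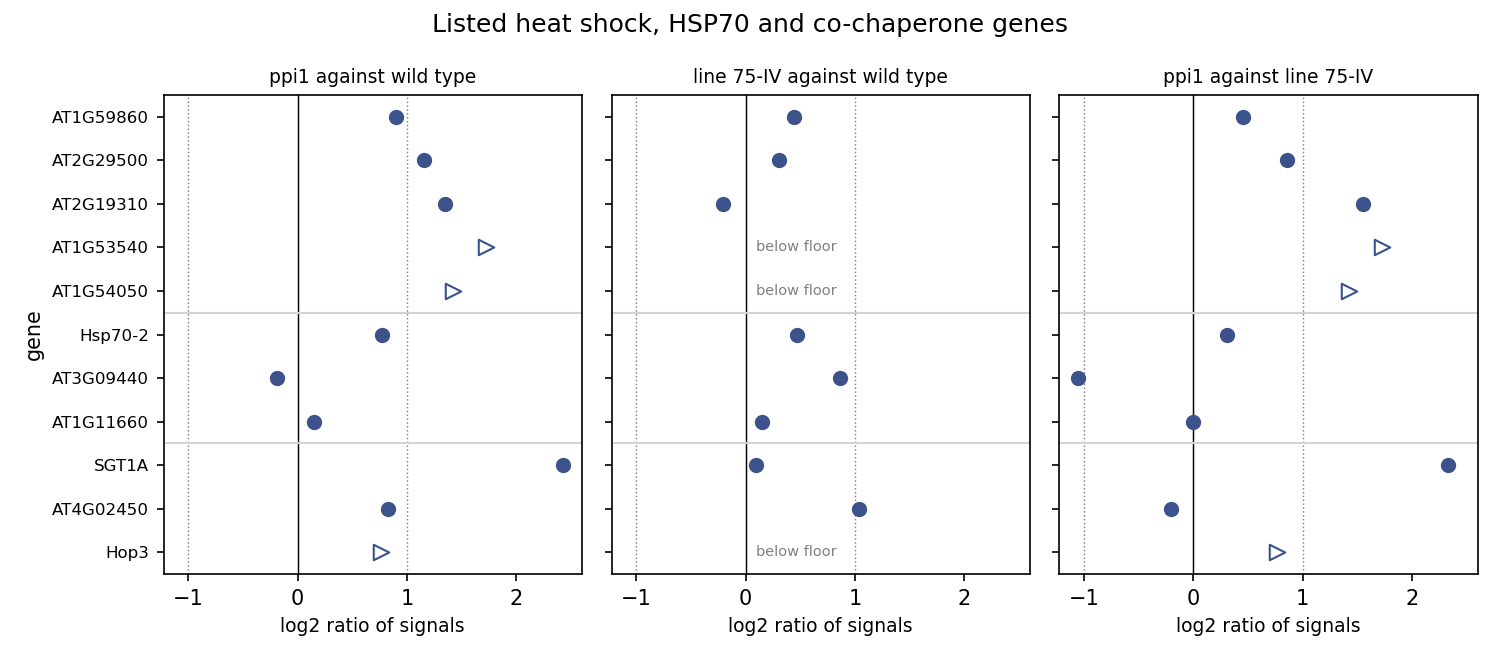
Log2 ratio of signals for 11 listed genes in the 3 comparisons, grouped from top to bottom as cytosolic small heat shock, HSP70 and co-chaperone genes. Filled points are genes above the floor on both arrays and open triangles are lower bounds. The 5 small heat shock genes, SGT1A, Hop3 and Hsp70-2 are above 0 in both comparisons of ppi1, whereas AT3G09440 and AT4G02450 are highest in line 75-IV (AT4G02450 in ppi1 under the spike-in scaling).

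Over the 9 lists for heat shock proteins, chaperones, co-chaperones, heat shock factors and other heat response genes, 13 of 107 entries were named and 10 of them were not among the 3 genes described. Of these 10, in ppi1 against wild type 7 had a higher and 1 a lower signal after the floor was applied, 2 were below the floor on both arrays, and 2 were at least 2-fold higher. For comparison, ppi1 was the higher of the pair in 58.1% of all genes measured on both arrays. Such shares leave out genes with a bound, which 2 of the 10 have in each comparison of ppi1. In ppi1 against line 75-IV 5 were higher and 2 lower, with 2 of the former and 1 of the latter past 2-fold, where 55.9% of all such genes were higher in ppi1. In line 75-IV against wild type 5 were higher and 1 lower, where 55.2% of all such genes were higher, and 1 passed 2-fold upwards, though none did under any of the 4 other scalings. These counts followed the scaling, and under the spike-in scaling 8 of the 10 were higher in ppi1 than in wild type, none was lower and 6 were at least 2-fold higher. Under it 7 were higher in ppi1 than in line 75-IV, 4 of them past 2-fold, and 1 was lower by less than 2-fold. This scaling also raised ppi1 far beyond the lists. With it, 367 of 1865 genes passed 2-fold upwards in ppi1 against wild type, and 483 of 1827 did so against line 75-IV. These totals leave out bounds. Whether the 10 genes rose more than genes at large under it was not tested. No entry of the lists for HSP90, HSP100, chaperonins, heat shock factors or other heat response genes had a probe set named for it alone, nor did the disease resistance and SCF lists, which hold the known partners of SGT1 proteins. These genes were not analysed here.

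The genes most like each of the 3 in pattern were found by the distance between log2 signals centred on their mean over the 3 arrays, among 2244 other genes above the floor on at least 1 array, with signals below the floor set to it. With 3 points a gene, likeness is easily reached. Nearest to SGT1A were AT4G38550 (distance 0.43), AT2G43620 (0.48) and AT3G52500 (0.51). The other 2 of the 5 nearest, AT1G53540 and NRPE3B, had signals below the floor, so their distances depend on it. AT2G43620 was well above the floor on all arrays, with 452.3 in ppi1, 114.4 in wild type and 77.5 in line 75-IV.

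AT1G53540 itself stood at the floor in wild type and line 75-IV, so its nearest genes are set by the floor and no exact distance is given. They were AT2G17740, AT4G38020, AT5G44290, AT3G52500 and AT4G23460. AT3G52500 was the one of these 5 far above the floor on all arrays, with 420.9 in ppi1, 129.2 in wild type and 109.5 in line 75-IV. AT2G29500 had closer matches. They were AT1G71695 (0.02), AT2G47330 (0.05), AT2G16380 (0.05), AT2G38180 (0.06) and the plastid lipid-associated protein gene FIB (0.07). AT1G71695 had 295.7 in ppi1, 134.4 in wild type and 163.6 in line 75-IV, each well above the floor.

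Chromosomal neighbours were taken among genes above the floor on at least 1 array. The genes directly next to SGT1A and AT2G29500 did not have their highest signal in ppi1. SGT1A lies on chromosome 4, and the next gene in the reference order, AT4G23580, had 25.3 in ppi1, 51.5 in wild type and 57.9 in line 75-IV, 2.04-fold and 2.29-fold lower in ppi1. On the other side, with 3 genes between, the transcription factor gene WRKY29 had 27.7 in ppi1, 13.2 in wild type and 15.9 in line 75-IV, so it was highest in ppi1. Farther out, AT4G23540 had 15.5, 13.3 and 8.4 and AT4G23620 had 31.4, 33.0 and 30.9 in the same order of arrays. AT2G29500 lies on chromosome 2, and its direct neighbour AT2G29510 had 32.1 in ppi1, 33.2 in wild type and 24.8 in line 75-IV, a close order of ppi1 and wild type that turned under the spike-in scaling. The other such genes around it, AT2G29360, AT2G29370 and ENOC, were between 1.04-fold and 1.59-fold apart between ppi1 and wild type. As deposited, AT2G29360 and ENOC were highest in ppi1. AT2G29360 had 146.0 in ppi1, 92.1 in wild type and 139.4 in line 75-IV, and ENOC had 39.5, 38.1 and 35.8. AT2G29370, with 21.5, 23.6 and 15.4, was highest in wild type. Around AT1G53540, on chromosome 1, nearer genes with a probe set were below the floor on every array, and the nearest above it had at least 75 genes in between. AT1G54010 had 1341.7 in ppi1, 788.2 in wild type and 768.4 in line 75-IV, and on the other side AT1G52140 had 43.4, 34.8 and 45.6. Beyond AT1G52140 lay AT1G52100, with 785.7 in ppi1, 232.6 in wild type and 341.5 in line 75-IV. It was 3.38-fold and 2.30-fold higher in ppi1. Beyond AT1G54010 lay the small heat shock gene AT1G54050, at least 2.68-fold higher in ppi1 than on either of the other arrays.

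**Figure D4:**
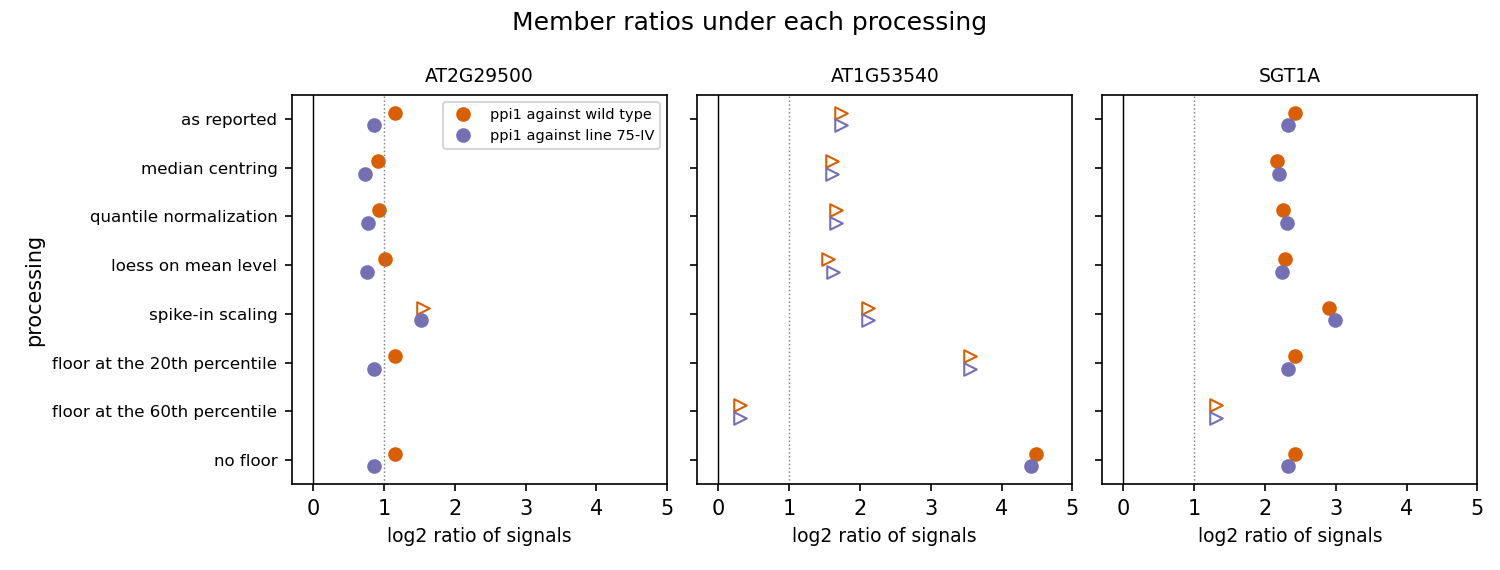
Log2 ratio of ppi1 over wild type and over line 75-IV for the 3 genes under the reported processing and 7 alternatives to the scaling or the floor. Open triangles are lower bounds, and AT2G29500 has no point at the 60th percentile floor because it is below it on every array. Each plotted ratio is above 0, and the dotted line marks 2-fold.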

How the data were processed

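The authors deposited a linear signal for each of 8297 probe sets on 3 Affymetrix arrays, and no source used here names their software or scaling target. Per the labels' protocols, biotin-labelled cRNA was transcribed by T7 polymerase from oligo-dT-primed cDNA. Equal averages on the arrays hide any difference in total mRNA. Of the probe sets, 3794 had 1 gene in the platform annotation, 70 several and 4433 none listed. Genes were matched to the RefSeq table (TAIR10.1), 3592 of 3602 of them. For 164 genes with several probe sets, the one highest by mean log2 signal was used, and 50 control probe sets were left out.

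Signals under the 40th percentile (14.9) were raised to that floor before log2 ratios were taken. A gene above it on 1 array only has a bound. Counts use a 2-fold rule of size, with no test. The members, the 15 lists with 161 entries (22 named) and the 2-fold rule were chosen with earlier results of these data known, and list membership comes from general knowledge of the families. Named were the members, all listed genes with a probe set, genes found by symbol or synonym, the 5 nearest patterns and the 2 measured genes on either side. Alternatives were 4 scalings (median, quantile, loess with span 0.4, 9 bacterial spike-in probe sets), no floor or one at the 20th or 60th percentile, other probe set choices and thresholds of 1.5-fold and 3-fold. The procedure was tested on simulated data with changes planted only in probe sets well above the floor in wild type. Bounds and genes as near the floor in wild type as the members were not covered by it. Python 3.11.15, pandas 2.3.3 and statsmodels 0.14.6 were used. The number of arrays limits the precision. No sequence was printed, as none was among the tables used here.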

Additional observations from a re-analysis of the deposited data

How the results depend on the processing

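SGT1A stayed at least 2-fold higher in ppi1 than in wild type and than in line 75-IV under the 7 alternatives of scaling or floor, of which the lower floor and none leave it as it is by construction, between 2.48-fold, a bound at the 60th percentile floor, and 7.51-fold and 7.93-fold under the spike-in scaling. AT1G53540 stayed higher with bounds of 2.94-fold or more, except that the 60th percentile floor left a bound of 1.24-fold (log2 0.31). With no floor its ratio was 22.4 against wild type, which rests on signals without order. AT2G29500 stayed higher in ppi1 but fell below 2-fold against wild type with median centring (log2 0.91) and quantile normalization (0.93), and gave no value at the 60th percentile floor. Against line 75-IV it passed 2-fold under the spike-in scaling (2.86-fold). The 2 other choices of probe set could not change these ratios, since each of the 3 genes has 1 probe set without a suffix.

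Of the 5 named small heat shock genes, 4 were at least 2-fold higher in ppi1 than in wild type, 3 with median centring or quantile normalization, 5 under the spike-in scaling and 1 at the 60th percentile floor. Against line 75-IV the 3 became 5 and 1 under the last pair of settings. The number of genes at least 2-fold apart between ppi1 and wild type, 124, became 379 under the spike-in scaling, 308 and 58 with floors at the 20th and 60th percentile, 946 with none, and 475 and 25 at thresholds of 1.5-fold and 3-fold. For ppi1 against line 75-IV, 118 became 500, 268, 62, 901, 464 and 27 in the same order. For line 75-IV against wild type, 35 became 120 and 15 with those floors, 667 with none, and 219 and 5 at those thresholds. The split of 79 higher and 45 lower in ppi1 against wild type became 38 and 87 (median centring), 60 and 58 (quantile normalization), 57 and 54 (loess), and 367 and 12 (spike-in scaling, under which the median log2 ratio over all genes went from 0.11 to 0.57). For ppi1 against line 75-IV, 52 and 66 became 33 and 87 after median centring and 483 and 17 under the spike-in scaling (median from 0.07 to 0.70). For line 75-IV against wild type, 27 and 8 became 23 and 12 after median centring and 16 and 20 under the spike-in scaling. The floors and thresholds change these counts by their construction, and the cause of the others was not tested. No paired analysis was possible because each group has 1 array. Signals near the floor limit what can be said of AT2G29500 on all arrays and of the other genes outside ppi1.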

Other observations

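The endoplasmic reticulum has its own folding machinery, and of 11 genes listed for its stress response 1 had a probe set named for it, the calreticulin gene CRT1b. Its signal was 122.9 in ppi1, 126.7 in wild type and 127.2 in line 75-IV, and no pair of arrays was more than 1.04-fold apart, though ppi1 was the highest, by a log2 ratio of 0.44 over wild type, under the spike-in scaling. Its probe set carries a suffix for possible cross-hybridisation, and its other probe sets were below the floor on all arrays.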
